A study of Homo with 4 samples.

Results

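In H1299 cells, 10 genes of the epithelial-mesenchymal transition (EMT) were examined, namely CDH1, CDH2, EPCAM, VIM, SNAI1, SNAI2, ZEB1, ZEB2, TWIST1 and TWIST2. They were listed by symbol, by a rule that used none of their values, and are 10 of the 20263 genes in the deposited table. Earlier results of these data were known when the list was chosen. H1299 is a human line established from a non-small cell lung cancer, and the sample labels call its cells epithelial. RNA was sequenced from cells stably infected with lentivirus that expressed a hairpin directed at IGF2BP3 mRNA (shIGF2BP3, genotype given as IGF2BP3 knockdown, n = 2) or a scramble control hairpin (shCtrl, genotype given as WT, n = 2). IGF2BP3 is an RNA-binding protein that binds and stabilizes mRNAs, and the comparison asks how its silencing changes gene expression. All 4 libraries share the cell line and the lentiviral infection. The study speaks of shRNAs against IGF2BP3, and which hairpin each shIGF2BP3 library carries is not stated, so the spread within shIGF2BP3 may include a difference between hairpins. The labels number the replicates 1 and 2, whereas in the deposited table the shIGF2BP3 columns carry the numbers 2 and 3.

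In EMT, epithelial cells lose the junctions that hold them in sheets and take on the shape and motility of mesenchymal cells. E-cadherin (CDH1) and EPCAM mark the epithelial state, and N-cadherin (CDH2) and the intermediate filament vimentin (VIM) mark the mesenchymal state. Transcription factors of the SNAI, ZEB and TWIST families drive the switch, and SNAI and ZEB proteins repress CDH1 by binding E-box motifs in its promoter.

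Total counts ran from 29709686 to 34817513 per library. The mitochondrial share of counts was 9.11% and 13.4% for the shCtrl libraries, and 11.4% and 17.0% for the shIGF2BP3 libraries. Levels are given as FPKM (fragments scaled to transcript length and library size, summed over the transcripts of a gene) where genes are compared with each other, and as CPM (counts scaled to TMM-adjusted library size) where libraries are compared. Differences were assessed by the quasi-likelihood test of edgeR over the 13379 genes left by the filter on low counts. A gene was called where its fold reached 1.5 and its unadjusted p was 0.05 or less, which are the cutoffs of the study. Adjusted p is the Benjamini-Hochberg value over these genes. The targeted gene, IGF2BP3, had 41.1 and 32.9 CPM in shCtrl and 26.4 and 24.8 CPM in shIGF2BP3. Its log2 fold change was -0.53 (standard error 0.17, adjusted p = 0.472 by edgeR), and its unadjusted p was 0.0244, so the targeted mRNA itself passed the p cutoff but not the fold of 1.5. Without shCtrl replicate 1 the value was -0.36, and without shCtrl replicate 2 it was -0.69. Without shIGF2BP3 replicate 1 it was -0.57, and without shIGF2BP3 replicate 2 it was -0.49. Whether IGF2BP3 met the p cutoff depended on single libraries. After adjustment 0 genes passed at 0.05 with edgeR, while 1411 met the unadjusted cutoff and DESeq2 gave 160 genes at an adjusted p under 0.05.

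H1299 control cells expressed the mesenchymal markers and showed CDH1 and EPCAM at or near 0. VIM was the most abundant of the 10 by far, with 1828 and 1921 FPKM in the shCtrl libraries, above 99.8% of all genes. TWIST1 followed with 9.96 and 8.71 FPKM, and CDH2 with 8.02 and 6.28 FPKM. The ranges of these leading genes did not overlap with all transcripts summed. Without the TWIST1 transcript ENST00000443687, which had no count in shCtrl replicate 2, TWIST1 had 5.95 and 8.71 FPKM and overlapped CDH2. TWIST2 (3.87 and 4.01 FPKM), ZEB2 (4.38 and 2.50 FPKM) and ZEB1 (2.56 and 1.82 FPKM) came next. In that order ZEB2 overlapped both of its neighbours, so these neighbours could not be ranked beyond the spread. SNAI1 stood lower, at 0.822 and 0.515 FPKM, and did not overlap ZEB1 above it or SNAI2 below it. SNAI2 had 0.173 and 0.120 FPKM and EPCAM 0.0280 and 0.157 FPKM, and they overlapped. CDH1 was listed at 0 in both control libraries. In all, 6 of the 10 genes had an FPKM of at least 1 in both shCtrl libraries, and the neighbours that overlapped were the same pairs when all 4 libraries were used.

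**Figure D1:**
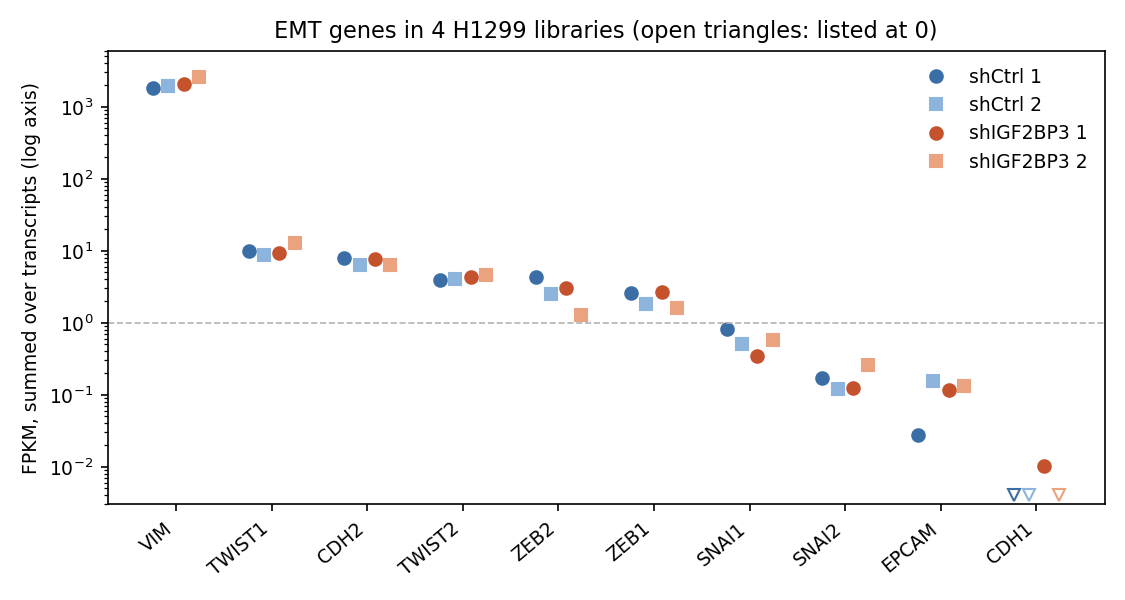
FPKM of each gene (log axis, summed over transcripts) in the 2 shCtrl libraries (blue) and the 2 shIGF2BP3 libraries (orange), ordered by shCtrl level, with open triangles for values listed at 0. VIM lies at 1828 FPKM or above in every library, 5 genes lie between 1 and 13 FPKM, and SNAI1, SNAI2, EPCAM and CDH1 lie under 1 FPKM.

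The wider epithelial program was detected in part. KRT18 and KRT8, the paired keratins of simple epithelia, averaged 642 and 424 FPKM in shCtrl, the highest of 37 genes of epithelial junctions, keratins and surface proteins. The third highest was AP1M2, a subunit of an epithelial sorting adaptor, at 15.4 FPKM. By contrast KRT19 averaged 0.0974 FPKM, and KRT5, PKP1 and PRSS8 had no count in any library. Of these 37 genes, 17 reached 1 FPKM in both shCtrl libraries, as did 10595 of all 20263 genes, so this count alone does not set them apart. Among 16 regulators of the epithelial state 2 reached 1 FPKM in both, KLF4 (3.88 FPKM) and KLF5 (2.06 FPKM). The pioneer factor FOXA1 followed at 0.682 FPKM. GRHL2, OVOL1, OVOL2, ELF5 and EHF, transcription factors of epithelial cells, had no count in any library. Of the fixed epithelial markers, KRT8 and KRT18 thus met the label "epithelial", while CDH1, EPCAM and KRT19 did not. Junction genes outside these markers were also expressed, among them TJP1 (13.7 FPKM), CLDN1 (7.88 FPKM) and DSG2 (5.09 FPKM). Of 6 matched markers of lung epithelial differentiation 0 reached 1 FPKM in both shCtrl libraries. NAPSA, an alveolar protease, was highest at 0.222 FPKM.

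Mesenchymal genes were also detected in part. Of 30, 18 were at or above 1 FPKM in both shCtrl libraries, as were 10595 of all 20263 genes. This count alone does not set the list apart. The receptor kinase AXL (184 FPKM), the ectonucleotidase NT5E (134 FPKM) and caveolin CAV1 (104 FPKM) led the list. At the other end, GREM1 had no count in any library and THY1 none in shCtrl. In shCtrl FAP averaged 0.0437, PDGFRB 0.0181, POSTN 0.0181 and PDGFRA 0.0151 FPKM. Markers of fibroblasts, blood and endothelium were near 0, and none of the 11 reached 1 FPKM in both shCtrl libraries. PTPRC and CD3E of blood cells and LUM of fibroblasts had no count in any library, and DCN of fibroblasts and KDR of endothelium had 0.0787 and 0.0619 FPKM. Of the 3 tested, 0 were called between shIGF2BP3 and shCtrl, against 2.54% higher and 2.78% lower of all genes tested. With 3 genes this does not set them apart from the background. COL1A1, at 0.0602 FPKM in shCtrl, had a log2 fold change of 1.05 (adjusted p = 0.476 by edgeR) without overlap between the groups. The groups of DCN and KDR overlapped. RNA from a sample of many cells cannot tell fewer cells of a kind from less RNA per cell.

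**Figure D2:**
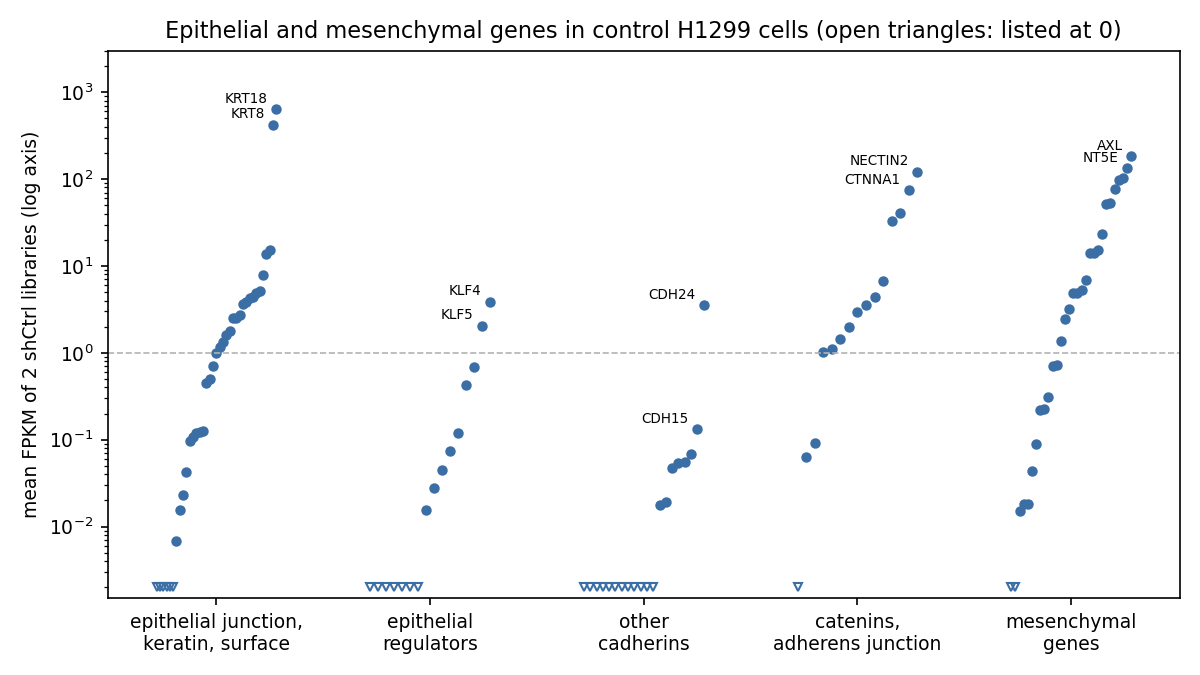
Mean FPKM of the 2 shCtrl libraries (log axis) for each gene of 5 lists, sorted within a list, with open triangles for genes listed at 0 and a dashed line at 1 FPKM. KRT18 and KRT8 lie far above the rest of the epithelial genes, most regulators of the epithelial state and most other cadherins lie below 1 FPKM, and most catenin and adherens junction genes and most mesenchymal genes lie above it.

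Silencing of IGF2BP3 gave no call among the 10 genes. CDH1 and EPCAM had too few counts to be tested, and of the 8 tested genes 0 were called higher, where 2.54% of all genes tested were, and 0 were called lower, where 2.78% were. The median log2 fold change of the 8 genes was 0.13, against 0.00 over all genes tested. VIM, TWIST1 and TWIST2 had both shIGF2BP3 libraries above both shCtrl libraries in CPM, 3 of 8 where 23.3% of all genes did so. No tested gene of the 10 had both shIGF2BP3 libraries below both shCtrl libraries, where 23.5% of all genes did. With 8 genes these counts do not set the group apart from the background.

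CDH1 (ENSG00000039068, GRCh38 chromosome 16 from 68737225 to 68835548, plus strand) encodes E-cadherin, the adhesion molecule of epithelial adherens junctions. It had 0 counts in both shCtrl libraries, 2 counts in shIGF2BP3 replicate 1 and 0 in shIGF2BP3 replicate 2. With 3 counts as the limit that a count of 0 allows, its level was under 0.0798 and 0.0885 CPM in the shCtrl libraries and under 0.109 CPM in shIGF2BP3 replicate 2. The 2 counts came to 0.0579 CPM (exact 95% Poisson interval 0.0070 to 0.209), within those limits, so no difference was detectable at this depth. These limits and intervals cover counting error only.

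EPCAM (ENSG00000119888, chromosome 2 from 47345158 to 47387601, plus strand), an epithelial surface adhesion protein, had 2 and 12 counts in shCtrl and 8 and 8 counts in shIGF2BP3. In CPM these were 0.0532 (exact 95% Poisson interval 0.0064 to 0.192) and 0.354 (0.183 to 0.619) in shCtrl. The shIGF2BP3 libraries had 0.232 (0.1001 to 0.457) and 0.291 CPM (0.1254 to 0.572), both between the control values.

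CDH2 (ENSG00000170558, chromosome 18 from 27950966 to 28177446, minus strand), which encodes N-cadherin, had the highest FPKM of the cadherins listed. It had 37.2 and 28.4 CPM in shCtrl and 34.0 and 34.8 CPM in shIGF2BP3. The shIGF2BP3 values lay between the control values. The log2 fold change was 0.07 (standard error 0.18, 95% interval -0.39 to 0.52, adjusted p = 0.899 by edgeR). Its sign turned with library totals in place of TMM scaling (-0.02) and without shCtrl replicate 2 (-0.12).

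VIM (ENSG00000026025, chromosome 10 from 17228259 to 17237593, plus strand) alone took 0.471% and 0.489% of all counts in shCtrl and 0.533% and 0.658% in shIGF2BP3. After scaling it had 4338 and 5029 CPM in shCtrl (mean 4683 ± 489, SD, n = 2) and 5225 and 7099.8 CPM in shIGF2BP3 (6163 ± 1325, SD, n = 2). The groups did not overlap, and the higher shIGF2BP3 library stood apart from the other 3. The log2 fold change was 0.40 (standard error 0.21, 95% interval -0.12 to 0.91, adjusted p = 0.517 by edgeR), under both thresholds. Without shIGF2BP3 replicate 2 it was 0.16, and without shIGF2BP3 replicate 1 it was 0.61, past the fold but with an unadjusted p of 0.0503. With the replicate block it was 0.38 with an unadjusted p of 0.027, past the p cutoff but not the fold. Replicate 2 of shIGF2BP3 also had the lowest total count and the highest mitochondrial share of the 4, and their part in the VIM value was not tested. Against the keratins, the FPKM of VIM was 2.98 and 2.86 times that of KRT18 in shCtrl and 3.15 and 3.67 times in shIGF2BP3, and 4.56 and 4.30 against 5.83 and 7.91 times that of KRT8.

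**Figure D3:**
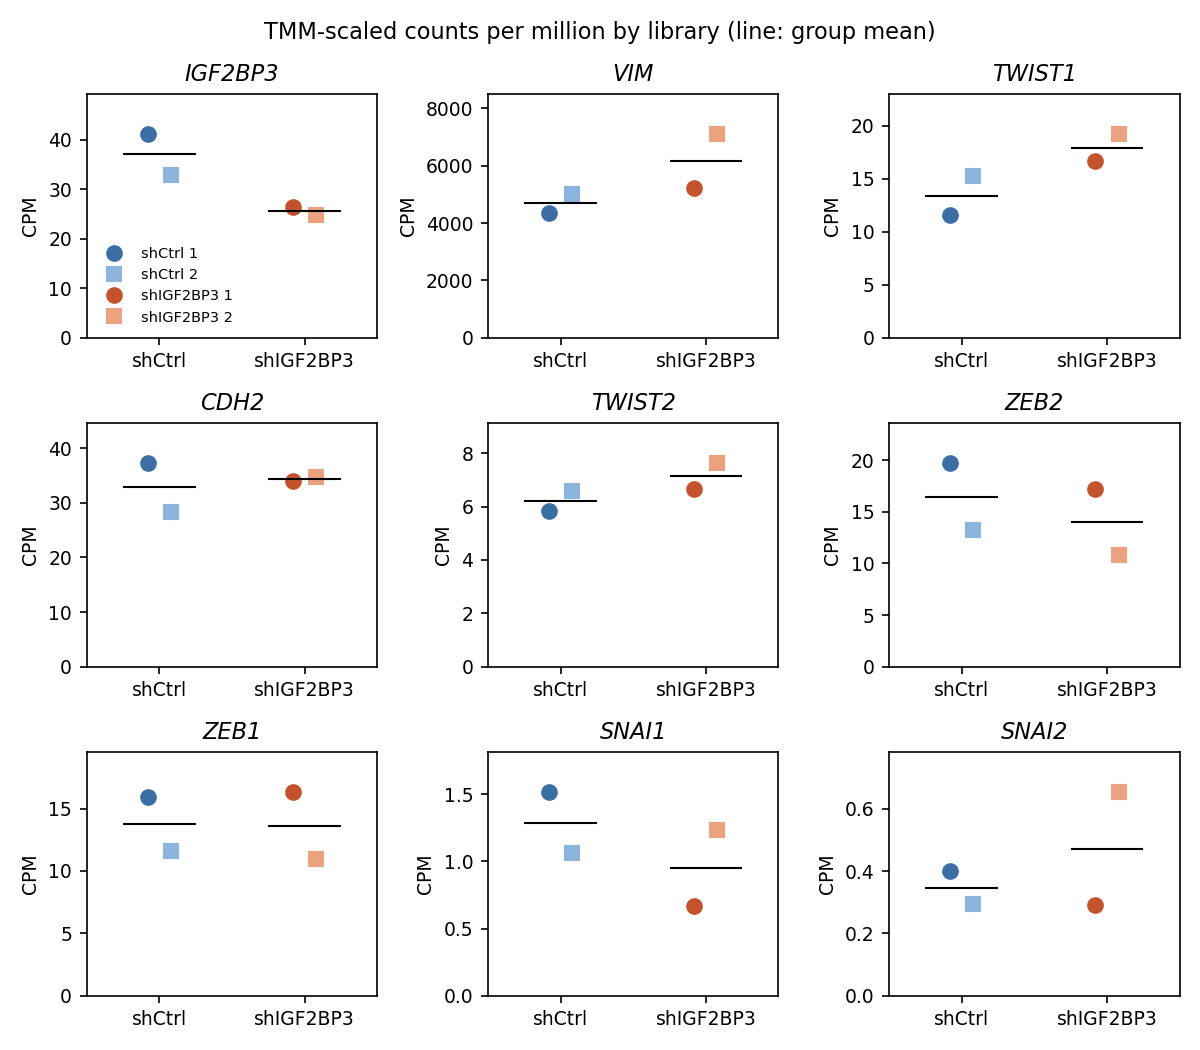
TMM-scaled CPM of IGF2BP3 and the 8 tested genes in each library, with separate vertical axes that start at 0 and a line at each group mean (n = 2 per group). IGF2BP3 is lower in both shIGF2BP3 libraries, VIM, TWIST1 and TWIST2 are higher in both, and the groups of the other 5 genes overlap.

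The SNAI genes encode zinc-finger repressors of CDH1. SNAI1 (ENSG00000124216, chromosome 20 from 49982999 to 49988886, plus strand) had 57 and 36 counts in shCtrl and 23 and 34 counts in shIGF2BP3. That was 1.52 and 1.06 CPM against 0.666 and 1.23 CPM, and the groups overlapped. The log2 fold change was -0.45 with a wide 95% interval of -1.53 to 0.62 (adjusted p = 0.695 by edgeR). SNAI2 (ENSG00000019549, chromosome 8 from 48917768 to 48921740, minus strand) rested on only 10 to 18 counts per library. It had 0.399 and 0.295 CPM in shCtrl and 0.290 and 0.654 CPM in shIGF2BP3, so the shIGF2BP3 group held both the lowest and the highest value. Its log2 fold change was 0.41 (95% interval -1.07 to 1.88, adjusted p = 0.797 by edgeR), and it was -0.26 without shIGF2BP3 replicate 2. Both intervals allow changes of more than 1.5-fold in either direction. SNAI1 had 4.75 and 4.31 times the FPKM of SNAI2 in shCtrl and 2.75 and 2.22 times in shIGF2BP3, ratios that carry the counting error of SNAI2.

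The ZEB genes encode repressors with paired zinc-finger clusters and a homeodomain. ZEB1 (ENSG00000148516, chromosome 10 from 31319125 to 31529814, plus strand) had 16.0 and 11.6 CPM in shCtrl and 16.3 and 10.97 CPM in shIGF2BP3. ZEB2 (ENSG00000169554, chromosome 2 from 144364364 to 144521057, minus strand) had 19.7 and 13.3 CPM against 17.2 and 10.8 CPM. In both genes replicate 1 of each group was higher than replicate 2 and the groups overlapped. The log2 fold change was -0.01 for ZEB1 (95% interval -0.71 to 0.68, adjusted p = 0.99) and -0.23 for ZEB2 (95% interval -1.01 to 0.55, adjusted p = 0.777) by edgeR. Each sign depended on single libraries, and without shCtrl replicate 1 the values were 0.24 and 0.08. The FPKM of ZEB2 was 1.71 and 1.38 times that of ZEB1 in shCtrl and 1.14 and 0.802 times in shIGF2BP3, an untested description. FPKM is scaled to transcript length and so carries the split of counts between transcripts. The ZEB2 transcript ENST00000558170 had 2.67 and 1.84 FPKM in shCtrl and 2.15 and 0 FPKM in shIGF2BP3. Its part in the ratio was not tested.

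The TWIST genes encode basic helix-loop-helix proteins that bind DNA as dimers, often with E proteins. TWIST1 (ENSG00000122691, chromosome 7 from 19020991 to 19117672, minus strand) had 11.6 and 15.3 CPM in shCtrl and 16.7 and 19.2 CPM in shIGF2BP3. The groups did not overlap in CPM, but in FPKM they did, at 9.96 and 8.71 against 9.32 and 12.8. Its log2 fold change was 0.42 (standard error 0.21, 95% interval -0.11 to 0.95, adjusted p = 0.515 by edgeR), with the smallest unadjusted p of the 8 genes, 0.0979. TWIST1 was also the only gene of the 10 that passed the thresholds in any fit, which happened without shCtrl replicate 2, at a log2 fold change of 0.63 and an unadjusted p of 0.0479 by edgeR. TWIST2 (ENSG00000233608, chromosome 2 from 238848032 to 238910543, plus strand) had 5.83 and 6.58 CPM in shCtrl and 6.66 and 7.63 CPM in shIGF2BP3. The closest values of the groups were nearly equal, and the log2 fold change was 0.20 (95% interval -0.31 to 0.72, adjusted p = 0.713 by edgeR). In every library TWIST1 exceeded TWIST2, by 2.17 to 2.80 times in FPKM with all transcripts summed. These ratios include the TWIST1 transcript ENST00000443687, described below. Without it TWIST1 had 5.95 FPKM in shCtrl replicate 1 and 8.22 FPKM in shIGF2BP3 replicate 2, where TWIST2 had 3.87 and 4.59 FPKM.

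**Figure D4:**
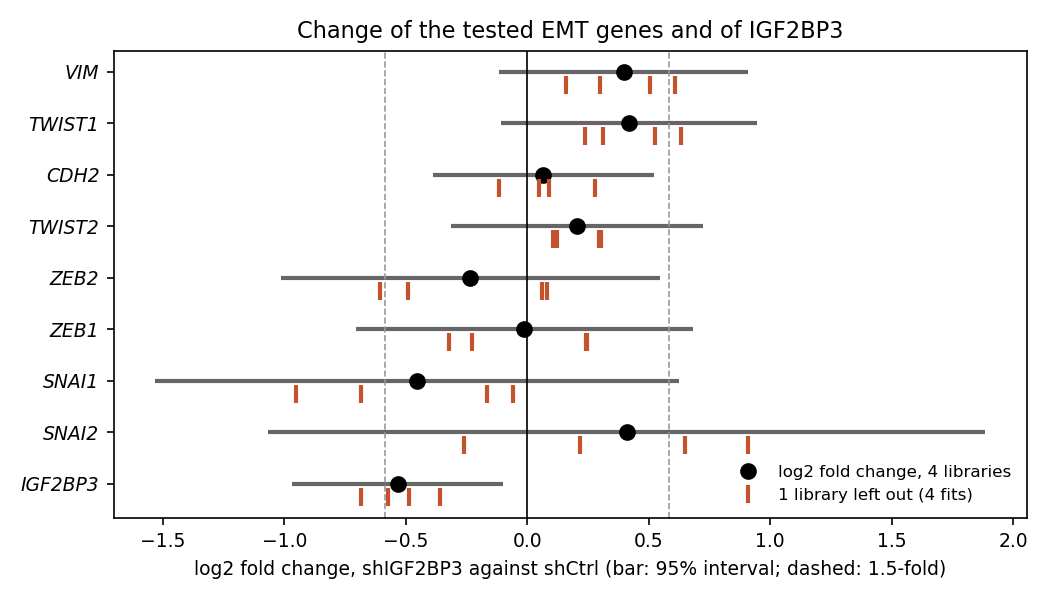
Log2 fold change of shIGF2BP3 against shCtrl (horizontal axis) for the 8 tested genes and IGF2BP3, with the 95% interval as a bar, dashed lines at 1.5-fold and red ticks for the 4 fits that each leave out a library. The intervals of all 8 genes cross 0, and the ticks of CDH2, SNAI2, ZEB1 and ZEB2 fall on both sides of 0.

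For TWIST1 and VIM the genes with the closest profiles were found by the Euclidean distance of log2 CPM over the 4 libraries, among tested genes with a symbol. Nearest to TWIST1 were ZNF480 (distance 0.165), ATP23 (0.173) and SRSF1 (0.176). SRSF1, a splicing factor, had 10.5 and 14.7 CPM in shCtrl and 16.4 and 20.4 CPM in shIGF2BP3, the same ascending order of libraries as TWIST1. VIM had no close neighbour. EEF2, an elongation factor, was nearest at 0.708, then the mitochondrially encoded ND5 at 0.713 and ACTB, cytoplasmic actin, at 0.738. This distance counts level as well as pattern, and few genes reach the level of VIM.

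The deposited counts are estimates per transcript, and for several of the 10 genes the estimate moved between transcripts from library to library. In ZEB1 the leading transcript differed between the groups. ENST00000361642 took 81.5% and 83.7% of the ZEB1 count in shCtrl and 12.1% and 0% in shIGF2BP3. ENST00000320985 took 15.2% and 0% in shCtrl and 87.2% and 98.0% in shIGF2BP3. The annotated start sites of these transcripts are 47 bp apart and their ends 611 bp apart, so most of their span is shared. In counts, ENST00000361642 had 489, 328, 68 and 0, and ENST00000320985 had 91, 0, 491 and 296, in shCtrl replicates 1 and 2 and shIGF2BP3 replicates 1 and 2. The ZEB1 sum hardly differed while its split did. Among 10791 tested genes with counts for at least 2 transcripts, 347 (3.22%) likewise had a leading transcript that was the same within each group and different between them, and no test was made of the split.

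In CDH2 and ZEB2 the leading transcript differed within a group, as in 34.1% of such genes. The full-length CDH2 transcript ENST00000269141 took 99.7% and 13.8% of the count in shCtrl and 37.1% and 100% in shIGF2BP3. ENST00000399380, which starts 140861 bp further downstream, took 0% and 85.8%, then 62.4% and 0%. The CDH2 split thus differed as much between replicates as between groups. ZEB2 has 34 listed transcripts, of which 19 had a count in any library and 2 in all 4. ENST00000558170 took 59.4% and 67.5% of its count in shCtrl and 57.7% and 0% in shIGF2BP3, where ENST00000636471 (42.4%) and ENST00000627532 (41.4%) took its place in replicate 2.

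VIM, TWIST1 and TWIST2 kept the same leading transcript in all 4 libraries, as did 62.7% of such genes. ENST00000544301 took 80.6% to 88.6% of the VIM count and ENST00000242261 took 72.4% to 95.7% of the TWIST1 count. A second TWIST1 transcript, ENST00000443687, had 87 counts in shCtrl replicate 1 and 84 in shIGF2BP3 replicate 2 but 0 in the other libraries. Its end lies 94477 bp from that of ENST00000242261. Without it TWIST1 had 9.26 and 15.3 CPM in shCtrl and 16.7 and 16.2 CPM in shIGF2BP3, and the groups still did not overlap. In FPKM they still did, at 5.95 and 8.71 against 9.32 and 8.22. For TWIST2, ENST00000612363 took 88.1% and 78.5% of the count in shCtrl and 77.4% and 65.2% in shIGF2BP3, and ENST00000448943 took the rest. SNAI1 and SNAI2 each had counts for a single transcript. EPCAM counts sat on ENST00000263735 in 3 libraries and on ENST00000405271 in shIGF2BP3 replicate 1.

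**Figure D5:**
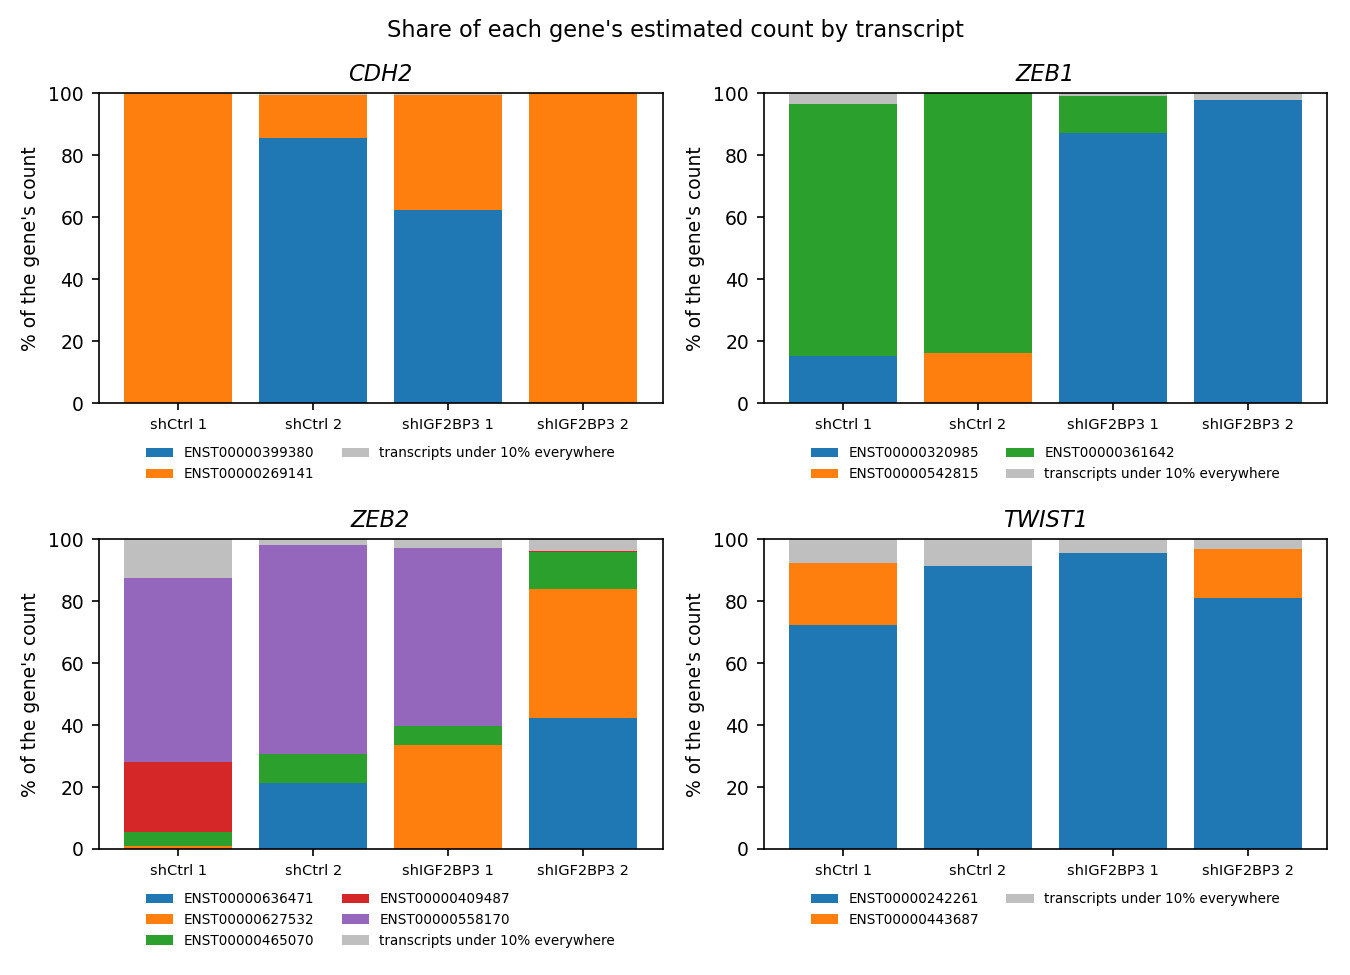
Share of each gene's estimated count (vertical axis, percent) by transcript in each library for CDH2, ZEB1, ZEB2 and TWIST1, with transcripts under 10% in every library in grey. The leading ZEB1 transcript differs between shCtrl and shIGF2BP3, whereas CDH2 and ZEB2 change their leading transcript within a group and TWIST1 keeps it.

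Other cadherins were scarce. Of 20 listed, 1 reached 1 FPKM in both shCtrl libraries, CDH24 at 3.54 FPKM, followed by CDH15 at 0.133 FPKM, and 8 had no count in any library. Of the 4 tested, 0 were called higher and 1 lower, against 2.54% and 2.78% of all genes, and their median log2 fold change was -0.27. The gene called lower was CDH4, which encodes retinal cadherin, with 17 and 21 counts in shCtrl and 5 and 4 counts in shIGF2BP3. It fell by 1.86 on the log2 scale (standard error 0.55, adjusted p = 0.472 by edgeR) from a level of 0.0686 FPKM, with an unadjusted p of 0.0171. The unadjusted p was above 0.05 without shCtrl replicate 2 (log2 fold change -1.61), without shIGF2BP3 replicate 1 (-1.85) and with DESeq2 (-1.88), so the call was lost in each.

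Catenins and other adherens junction proteins, which link cadherins to actin, were present although CDH1 was not. Of 15 listed, 11 reached 1 FPKM in both shCtrl libraries, led by NECTIN2 (122 FPKM), an immunoglobulin-type adhesion molecule, and by the α-catenin CTNNA1 (73.9 FPKM) and the β-catenin CTNNB1 (40.6 FPKM). Of the 14 tested, 0 were called in either direction, against 2.54% higher and 2.78% lower of all genes, and the median log2 fold change was -0.06. With the replicate block 2 were called lower, where 418 of all 13379 genes were. Leaving out single libraries also changed the calls of this list. CTNNB1 had 171 and 144 CPM in shCtrl and 141 and 94.4 CPM in shIGF2BP3, without overlap, with a log2 fold change of -0.42 (adjusted p = 0.521 by edgeR). Of the 24 tested genes of epithelial junctions, keratins and surface proteins, 0 were called either way, and the groups failed to overlap upwards in 5 and downwards in 5, close to the 23.3% and 23.5% of all genes. Library totals, with or without mitochondrial genes, called 1 of them lower, and leaving out shCtrl replicate 2 or shIGF2BP3 replicate 1 called 1 higher. Their median log2 fold change was 0.12, with 0.16 for KRT18 (adjusted p = 0.716 by edgeR). KRT8 went the other way, at -0.25 (adjusted p = 0.566 by edgeR). It had 748 and 926 CPM in shCtrl and 699 and 710 CPM in shIGF2BP3, without overlap. Of the 5 tested epithelial regulators 0 were called, against 2.54% higher and 2.78% lower of all genes, with a median log2 fold change of 0.35. The groups failed to overlap upwards in 3 of them and downwards in 0, against 23.3% and 23.5% of all genes. With 5 genes these counts do not set the list apart from the background.

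Among the 24 tested mesenchymal genes 1 was called higher and 0 lower, against 2.54% and 2.78% of all genes, with a median log2 fold change of -0.04. Without shIGF2BP3 replicate 1 the list had 3 higher and 1 lower, in a fit that called 671 higher and 874 lower among all genes. The gene that rose was FGF2, a growth factor, with 18.1 and 16.1 CPM in shCtrl and 24.0 and 28.0 CPM in shIGF2BP3. The log2 fold change of FGF2 was 0.60 (standard error 0.17, adjusted p = 0.472 by edgeR), with an unadjusted p of 0.0153 and just past the fold of 1.5. It was not called with library totals (0.51) or limma on log2(FPKM + 1) (0.41), nor without shCtrl replicate 2 (0.52) or shIGF2BP3 replicate 2 (0.49). TGFB1, a ligand that induces EMT, had a log2 fold change of -0.07 (adjusted p = 0.856 by edgeR) at a control level of 146 FPKM. MMP9, a gelatinase, had 62 and 74 counts in shCtrl and 42 and 52 counts in shIGF2BP3, with a log2 fold change of -0.31 (adjusted p = 0.736 by edgeR). FN1, a mesenchymal marker at 4.84 FPKM in shCtrl, went in the direction opposite to VIM. It had 30.5 and 32.2 CPM in shCtrl and 28.6 and 13.9 CPM in shIGF2BP3, without overlap. Its log2 fold change was -0.56 (adjusted p = 0.558 by edgeR), and it was not called.

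Further transcription factors of EMT and the ID proteins, which bind E proteins and keep them from DNA, gave 0 calls among 14 tested, against 2.54% higher and 2.78% lower of all genes, with a median log2 fold change of 0.17. In this list 1 gene was called higher without shCtrl replicate 2 and in both limma fits with the FPKM filter, and 2 were without shCtrl replicate 1. YBX1 (1302 FPKM), ID1 (387 FPKM) and ID3 (174 FPKM) were the most abundant. ID3 had 231 and 271 CPM in shCtrl and 196 and 179 CPM in shIGF2BP3, a log2 fold change of -0.42 (standard error 0.15, adjusted p = 0.472 by edgeR) that stayed under the fold threshold.

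The cofactors of SNAI, ZEB and TWIST proteins and the enzymes of their turnover were all expressed. Each of the 25 matched genes had an FPKM of at least 1 in both shCtrl libraries, led by PRMT1 (232 FPKM), an arginine methyltransferase, the corepressor CTBP1 (82.8 FPKM) and the deacetylase HDAC1 (71.0 FPKM). Of these 25, 1 was called higher and 1 lower, against 2.54% and 2.78% of all genes, with a median log2 fold change of -0.05. With the replicate block 2 were lower, without shCtrl replicate 1 there were 2 higher and 2 lower, and without shIGF2BP3 replicate 2 or with DESeq2 0 were higher. FBXL14, an F-box protein known to mark SNAI1 for degradation, had 11.3 and 13.8 CPM in shCtrl and 8.66 and 6.68 CPM in shIGF2BP3. It fell by 0.70 on the log2 scale (standard error 0.23, adjusted p = 0.472 by edgeR), with an unadjusted p of 0.0238, but was not called without shCtrl replicate 2 (-0.55) or shIGF2BP3 replicate 2 (-0.53).

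MDM2, a ubiquitin ligase best known for p53, had 7.71 and 31.4 CPM in shCtrl and 57.6 and 71.8 CPM in shIGF2BP3. The control libraries differed from each other more than the shIGF2BP3 libraries did. It rose by 1.73 on the log2 scale (standard error 0.62, adjusted p = 0.472 by edgeR), with an unadjusted p of 0.0359. The value was 1.05 without shCtrl replicate 1 and 3.07 without shCtrl replicate 2, and MDM2 was not called without shIGF2BP3 replicate 2 (1.56) or with DESeq2 (1.73, unadjusted p of 0.0514). In FPKM it had 2.45 and 3.03 in shCtrl and 4.86 and 4.52 in shIGF2BP3, and limma on log2(FPKM + 1) gave 0.61. In every list 0 genes had an adjusted p under 0.05.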

How the data were processed

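RNA-seq was measured in H1299 cells, 2 shCtrl and 2 shIGF2BP3 libraries, grouped by the sample labels. For each library the authors deposited an estimated count of every transcript, already as whole numbers without normalization, and FPKM values per transcript scaled by length and depth. The submitters' processing notes name CASAVA, FastQC, Trimmomatic, HISAT2, bedtools and GRCh38, and the counter and annotation are not given in the sources used here. Estimates split reads shared by transcripts, so sums per gene are firmer than single transcripts.

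Counts and FPKM of 95139 transcripts were summed to 20263 genes, and 18218 genes received a symbol by position against RefSeq (shared part at least 0.5, lead of 0.2 over any other gene), all 10 genes included. None of the 10 overlapped another gene of the deposited table. The test was edgeR's quasi-likelihood test (edgeR 4.0.16, R 4.3.3, TMM scaling, prior count 0.125, filterByExpr with a minimum count of 10 and total of 15). TMM factors ran from 0.927 to 1.09. Precision was set by the biological coefficient of variation (22.8% in common) and 2 libraries per group more than by depth. The steps were tested on simulated data with 200 changed genes. Baseline levels and transcript shares were described without a test.

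Replicates differed by more than sampling noise, with a chi-square per degree of freedom of 78.9 in shCtrl and 77.5 in shIGF2BP3. Deviations of same-numbered libraries correlated at 0.02, so the numbers were not taken as pairs. Unused columns of per-sample values numbered 0.

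The genes, lists, thresholds and tests were chosen with earlier results of these data known. The genes named were the 10, IGF2BP3, TGFB1, MMP9, KRT18, in each list the 3 highest by shCtrl FPKM and those called without overlap between groups, the 3 nearest genes of TWIST1 and of VIM, and markers of other cell types without counts. KRT19 and FN1 were named as fixed markers. TJP1, CLDN1, DSG2, COL1A1, the epithelial genes without counts and the mesenchymal genes lowest in shCtrl were named after their values were seen. KLF8, FBXL5 and SFTPC had no match by position and were not analysed here. Some list genes named by this rule are not reported here. Alternatives were library totals, RLE factors, DESeq2 1.42.0, no low-count filter, the replicate number as a block, limma 3.58.1 on log2(FPKM + 1) with and without a filter of 1 FPKM in 2 libraries and on log2(FPKM + 0.1), each library left out in turn and, chosen after the data were seen, totals without mitochondrial genes.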

Additional observations from a re-analysis of the deposited data

How the results depend on the processing

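In all alternatives run, VIM, TWIST1 and TWIST2 kept a positive log2 fold change (0.16 to 0.61, 0.21 to 0.63 and 0.10 to 0.31). SNAI1 kept a negative one (-0.95 to -0.06) in the 11 alternatives that gave it a value, which leave out limma with the FPKM filter. Among the 10 genes, calls of a higher level ran from 0 to 1 with each library left out, the 1 being TWIST1 without shCtrl replicate 2, and calls of a lower level stayed at 0. CDH2 turned negative with library totals (-0.024), with log2(FPKM + 0.1) in limma (-0.017) and with log2(FPKM + 1) in limma with (-0.016) or without (-0.016) the filter, and ran from -0.12 to 0.28 with each library left out. With each library left out, SNAI2 ran from -0.26 to 0.91, ZEB1 from -0.32 to 0.25 and ZEB2 from -0.61 to 0.083. Over all genes, 340 were higher and 372 lower. Scaling by library totals left 195 higher genes, limma gave 175 on log2(FPKM + 0.1), and on log2(FPKM + 1) it gave 127 with the filter and 106 without. It ran from 210 to 671 with each library left out, and the lower count from 313 to 874, both highest without shIGF2BP3 replicate 1. Higher genes made up 47.8% of the calls, against 28.7% under library totals and 27.3% for log2(FPKM + 1) in limma, and the median of all genes moved from 0.00 to -0.08 and -0.07. With the replicate block 354 genes were higher and 418 lower, 0 of the 10 among them, and no call among the 10 changed, while catenins went from 0 to 2 lower and cofactor and turnover genes from 1 to 2; the numbers are not known to pair the libraries. IGF2BP3 passed the fold of 1.5 with library totals (-0.62), the limma fits (-0.68 to -0.60) and without shCtrl replicate 2. The causes of these differences were not tested. Depth limits CDH1, EPCAM, SNAI1 and SNAI2, whose counts were at most 57 per library, and 2 libraries per group limit the rest.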
